A study of Zea mays with 192 samples.

Results

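Maize leaf protoplasts that had received a pool of pre-meiotic transcription factor (TF) constructs were ordered by their CSD4 share. This is the part that CSD4 made up of the RNA counted on a set of gene models. Such RNA can come from the native genes or from constructs. The cells with a high CSD4 share were compared with those with a low share across all genes. The share was the number of unique molecular identifiers (UMIs) of the CSD4 gene model (GRMZM5G895313) divided by the summed UMIs of CSD4, nam1 (GRMZM2G393433), ocl4 (GRMZM2G123140), OFP16 (GRMZM2G055257) and zfl1 (GRMZM2G098813). A cell was kept when this sum reached 20 UMIs, which kept 76 of the 96 protoplasts of the pool. The kept cells were ranked and cut into 3 parts: 25 cells with a high share, 26 in the middle and 25 with a low share. The series holds 192 protoplasts, and the other 96 had received a pool of bHLH factors. They are used below only for background levels and to define the gene models that mark the pre-meiotic TF pool.

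All protoplasts were isolated from leaves of seedlings of B73, a wild-type maize inbred line, raised in the dark so that the leaves were etiolated, and harvested at 10 to 12 days after germination. Each isolation combined leaves of more than 10 seedlings, so no protoplast can be traced to a plant. No untransfected protoplasts were analysed here, and the sources used here give no list of constructs per pool. The labels name no separate transfections of the pre-meiotic TF pool. The cells are therefore 1 sample, both groups come from it, and no p-value or standard error was made from them.

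PhasiRNAs are small RNAs cut at even spacing from long precursors transcribed at PHAS loci. Those of maize anthers fall into classes of 21 and of 24 nucleotides, and the study asked whether factors active in anthers could switch on such precursors in leaf cells, where they are normally silent. CSD is the family name used for maize proteins with a cold-shock domain, a fold that binds single-stranded nucleic acids. Plant members studied in wheat and Arabidopsis act as RNA chaperones and take part in cold tolerance. The other gene models of the share belong to different TF families: nam1 is named for the no apical meristem group of NAC factors, ocl4 is an HD-ZIP IV factor of the outer cell layer needed for normal anther walls, OFP16 is an ovate family protein, and zfl1 is a LEAFY-like regulator of flowering.

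The CSD4 share was a graded quantity with no gap between the groups. It ran from 37.6% to 53.85% with a median of 40.35% in the high-share cells, from 28.54% to 37.5% with a median of 31.85% in the middle cells, and from 10.0% to 28.21% with a median of 24.0% in the low-share cells. The lowest high-share cell and the highest middle cell were thus at 37.6% and 37.5%, and the lowest middle cell and the highest low-share cell at 28.54% and 28.21%. Around the minimum of 20 UMIs, 2 kept cells had 20 or 21 UMIs on the 5 gene models and 5 cells left out had 17 to 19.

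Many single cells could not be placed above or below the pooled share of 32.24% at their depth. The exact 95% interval of the share, which covers counting error only, lay above 32.24% in 9 of the 25 high-share cells and below it in 11 of the 25 low-share cells. It included the pooled share in the other 16 high-share and 14 low-share cells and in all 26 middle cells. The standard deviation (SD) of the share over the 76 kept cells was 8.92 percentage points, against 5.99 points that counting alone gives at the pooled share. The spread between cells was wider than counting error, but counting error made up a large part of it.

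**Figure D1:**
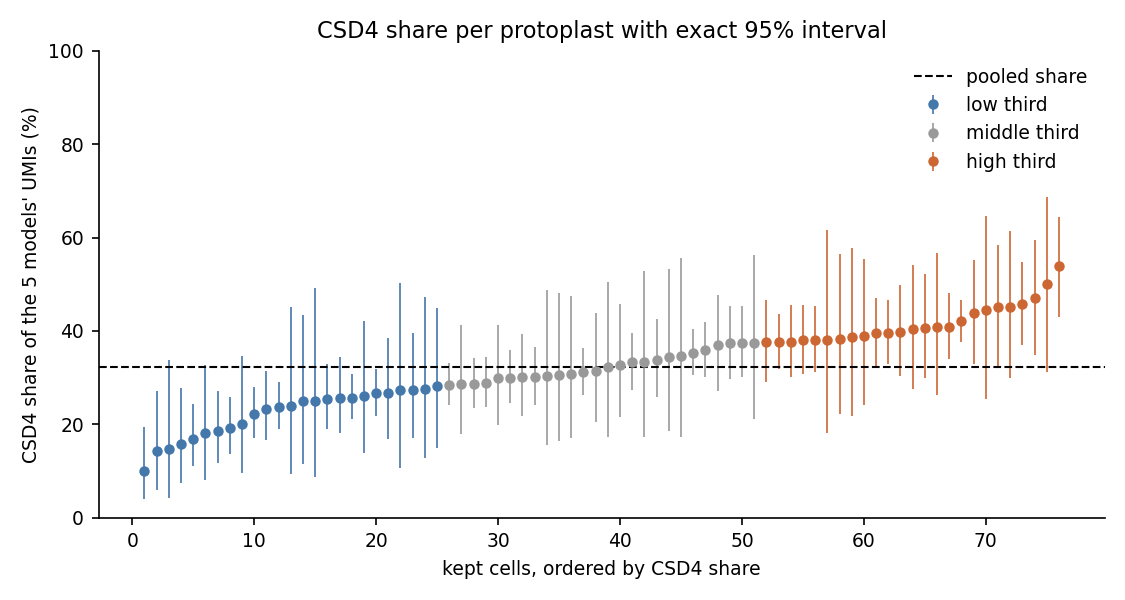
CSD4 share of the UMIs of the 5 gene models (percent, y axis) in each of the 76 kept protoplasts, ordered by share along the x axis and coloured by group (low, middle and high part of the ranking). Points are the shares, bars their exact 95% intervals and the dashed line is the pooled share of 32.24%, which the bars of 16 high-share and 14 low-share cells cross.

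CSD4 itself was higher in the high-share cells, and the other gene models of the share were lower, as the ranking fixes in part. CSD4 had a median of 1266 UMIs per 1000000 UMIs of a cell (called TPM here, a unit that carries no gene length because each molecule is counted once at its 3′ end) in the high-share cells, with a range of 236 to 4017. The median was 1336 TPM (159 to 3808) in the middle cells and 639 TPM (124 to 4145) in the low-share cells. The groups overlapped over nearly their whole range: 20 of 25 high-share cells exceeded the low-share median, and 5 of 25 low-share cells exceeded the high-share median. The middle cells stood at the level of the high-share cells, so CSD4 was set apart in the low-share cells and not along the whole ranking.

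The ratio of CSD4 between the groups was modest. The mean was 1402 TPM in the high-share and 870.7 TPM in the low-share cells. In summed UMIs, 1206 against 612 gave 1.80 times more CSD4 per UMI in the high-share cells (1.63 to 1.99, 95% interval for counting error). On the scale used for all genes below, the log2 of the mean TPM plus a pseudocount of 10, relative to the median gene, the ratio was 0.52. The Spearman correlation of the share with CSD4 TPM over the 76 cells was 0.23, a description only, since both hold the same CSD4 UMIs.

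CSD4 was also transcribed at a low level in the bHLH pool, which is the background for these values. There it had a UMI in 72 of 96 cells (75.0%), with a median of 59.4 TPM and a highest cell at 473 TPM, against 94 of 96 cells (97.9%) and a median of 896 TPM in the whole pre-meiotic TF pool. No cell of the bHLH pool reached the low-share median, but 20 cells exceeded the lowest low-share cell. In contrast, nam1, ocl4, OFP16 and zfl1 had 0 UMIs in the bHLH pool. UMIs on a gene model can come from the native gene or from a construct, and the 2 cannot be told apart in these values.

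Of the other gene models, nam1 showed the widest gap. Its median was 537 TPM in the high-share cells (63.7 to 2564) and 825 TPM in the low-share cells (164 to 3952), with means of 785.5 and 1271 TPM and a centred log2 ratio of -0.85. The homeodomain factor ocl4 had means of 613 and 848 TPM (-0.63) and OFP16 of 447.5 and 642 TPM (-0.68). The flowering regulator zfl1 differed least, with means of 216 and 226 TPM and a centred log2 ratio of -0.23. The ranges of all 4 overlapped between the groups.

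Summed over nam1, ocl4, OFP16 and zfl1, the median cell had 1604 TPM in the high-share group (239 to 6667), 2618 TPM in the middle and 1849 TPM in the low-share group (491 to 12000). The mean was 2062 against 2988 TPM between the high-share and low-share cells, a centred log2 ratio of -0.70. The high-share cells thus had more CSD4 and less of the other 4 gene models than the low-share cells, which the ranking fixes in part. Neither followed the whole ranking, since the middle cells had the highest median of both. Among the 4, nam1 made up 37.8% of the UMIs in the high-share, 45.0% in the middle and 41.9% in the low-share cells. For ocl4 these shares were 30.2%, 28.5% and 29.3%, for OFP16 22.4%, 18.0% and 20.6%, and for zfl1 9.64%, 8.41% and 8.26%. The part of nam1 thus differed most between groups, lowest in the high-share and highest in the middle cells.

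**Figure D2:**
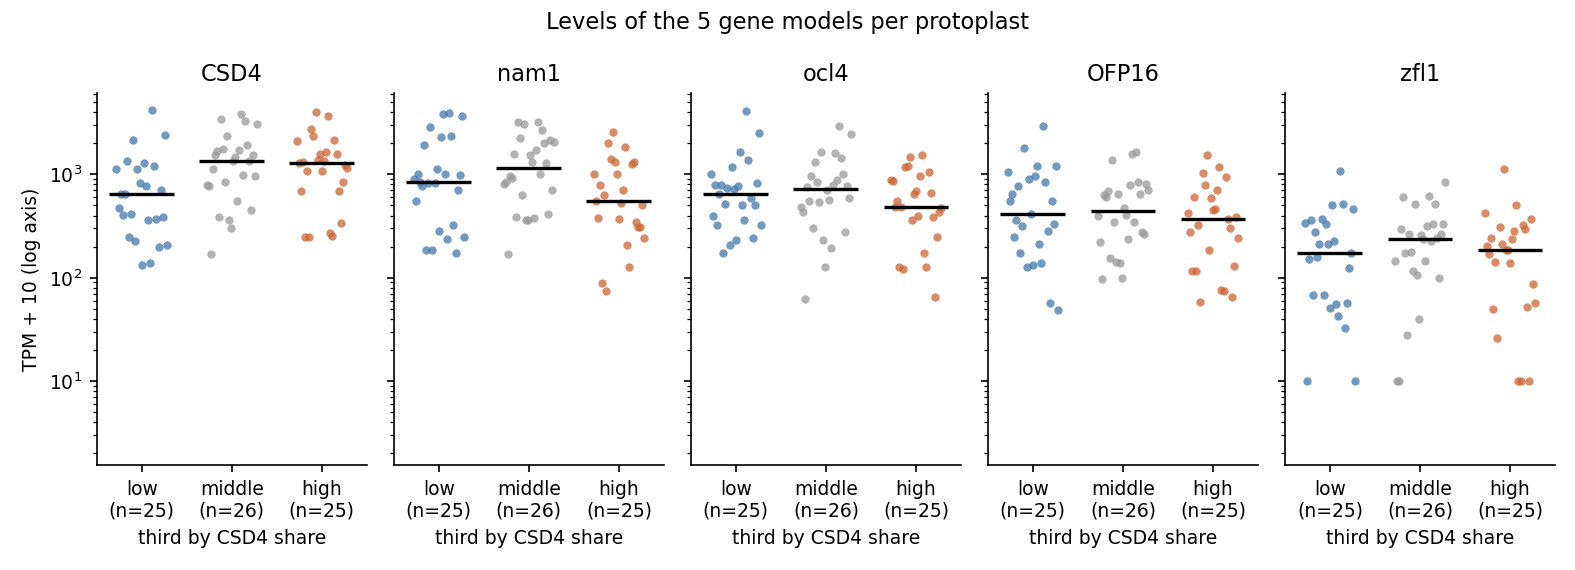
TPM plus 10 (log axis) of CSD4, nam1, ocl4, OFP16 and zfl1 in each protoplast of the low (n = 25), middle (n = 26) and high (n = 25) group by CSD4 share; each point is a cell and each line a group median. CSD4 medians were 639, 1336 and 1266 TPM, and the groups overlap for every gene model.

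The depth of the groups overlapped, with the low-share cells the shallower by median. The median was 36410 UMIs per cell in the high-share group (7266 to 77539), 32590 in the middle group (6467 to 86977) and 27980 in the low-share group (2774 to 88243), with medians of 5689, 4960 and 5523 genes. The most abundant row, GRMZM2G028910, took a median of 30.3% of the UMIs of a high-share cell and 32.9% of those of a low-share cell. Over the 76 cells, the Spearman correlation of the share with UMIs was 0.12 and with the number of genes 0.14. The shallowest low-share cell had 2774 UMIs, so that 1 UMI in it counted as 360 TPM. Several results that rest on it are given with and without it.

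The leaf cell type could be checked only in part. Pyruvate phosphate dikinase (Ppdk1), an enzyme of C4 photosynthesis, had a UMI in 21 high-share and 20 low-share cells, with means of 114 and 107 TPM. The other mesophyll markers were sparse: pep1, the C4 carboxylase, was found in 7 and 3 cells, GRMZM2G121878 in 6 and 3, and mdh6 in 1 and 5. The bundle sheath malic enzyme (GRMZM2G085019) was found in 8 and 10 cells and the epidermal factor ocl1 in 12 and 10. The tapetum genes ms26 and ms8 had no UMI in any of the 76 cells. None of these markers separated the groups.

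Across all genes the high-share and low-share cells were close. A row was counted as eligible when at least 25% of the 50 cells held a UMI of it and their mean reached 50 TPM, which 1379 rows met. Of these, 9 (0.653%) were at least 2-fold higher and 27 (1.96%) at least 2-fold lower in the high-share cells, relative to the median eligible gene, whose own log2 ratio was 0.16. The middle 50% of the centred log2 ratios lay between -0.27 and 0.24. No eligible gene had values that did not overlap between the groups. The members were chosen on the same cells, so these counts describe them and nothing was tested.

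The few genes past 2-fold were mostly of low abundance. Among the 337 eligible genes with a mean of at least 200 TPM, 1 was past 2-fold higher and 2 past 2-fold lower. One low-share cell carried much of the lower side: the shallowest cell was the highest low-share cell for 17 of the 27 lower genes, against 343 of all 1379. Without it 15 genes were past 2-fold higher and 15 lower, of 1338 eligible, and 7 of the 9 and 7 of the 27 were among them. By summed UMIs, which weight cells by depth, 6 were higher and 3 lower, and 3 and 2 of them were shared with the counts by mean TPM.

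**Figure D3:**
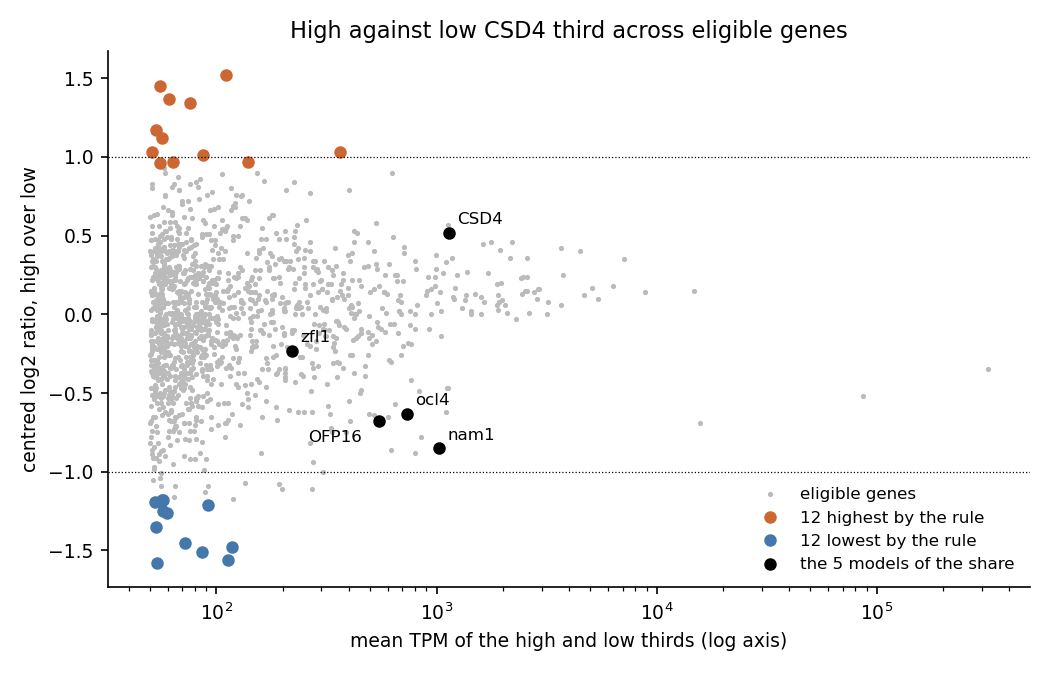
Centred log2 ratio of the high-share over the low-share cells (y axis) against the mean TPM of both groups (x axis, log) for the 1379 eligible genes in grey; the 5 gene models of the share are black, and the 12 highest and 12 lowest genes are orange and blue. Dotted lines mark a 2-fold ratio, which 9 genes exceed above and 27 below, most of them near the minimum of 50 TPM.

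The 12 highest eligible genes included no gene model of the share and no construct row. They kept their direction by summed UMIs, without the highest cell of each group and after thinning each cell to 5000 UMIs. The rule for naming them required this. The largest ratio was that of GRMZM2G420883, a gene without a name in the reference table. It had a median of 77.5 TPM in the high-share cells (0 to 1282) and 13.8 TPM in the low-share cells (0 to 386), with a UMI in 24 and 14 of 25 cells. Its mean was 173 TPM in the high-share, 83.5 in the middle and 47.1 in the low-share cells, a centred log2 ratio of 1.52. In summed UMIs it was 2.36 times higher (1.64 to 3.43). The ranges of the groups overlapped.

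Several further unnamed genes had ratios of a similar size. GRMZM2G468111 had means of 88.2, 47.1 and 22.0 TPM in the high-share, middle and low-share cells (centred log2 ratio 1.45) and a UMI in 14 and 8 of the high-share and low-share cells. GRMZM2G361210 had means of 95.3, 40.2 and 26.3 TPM (1.37) and a UMI in 20 and 10 cells. GRMZM2G311898 had means of 117, 60.6 and 35.0 TPM (1.34) and a UMI in 19 and 13 cells. In each, the mean of the middle cells fell between those of the other groups. For both GRMZM2G468111 and GRMZM2G311898 the highest high-share cell was at 1060 TPM. Without the highest cell of each group the ratio of both was 0.98, and after thinning it was 0.32 and 0.62. For GRMZM2G361210 these ratios were 1.37 and 1.40. The levels were low, so that a median cell of the low-share group held no UMI of GRMZM2G468111 or GRMZM2G361210.

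The 1 named gene among the 12 highest was GF14-6 (GRMZM2G102499), a 14-3-3 protein of the family that binds phosphorylated partners. It had a median of 105 TPM (0 to 598) in the high-share and 41.4 TPM (0 to 116) in the low-share cells, and means of 124.5, 66.6 and 49.6 TPM across high-share, middle and low-share cells. Its centred log2 ratio was 1.01, or 0.92 without the shallowest low-share cell, and the ratio of summed UMIs was 1.84 (1.30 to 2.65). GRMZM2G031033 was the most abundant of the 12, with means of 511, 501.5 and 218.5 TPM and a centred log2 ratio of 1.03. Its medians went the other way, 129 TPM in the high-share and 145 TPM in the low-share cells, and the highest cells of the groups were at 4993 and 1399 TPM. The remaining 6 genes (GRMZM2G447617, AC189750.4_FG004, GRMZM2G072054, GRMZM2G171254, GRMZM2G075244 and GRMZM2G041699) had centred log2 ratios of 0.96 to 1.17. GRMZM2G075244 and GRMZM2G075461 varied together over the 76 cells (Pearson r = 0.90), but GRMZM2G075461 had means of 59.98 and 58.57 TPM (centred log2 ratio -0.14, against 0.97). Whether such gene models share reads was not tested.

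The 12 lowest genes, named by the same rule of a kept direction, had no name in the reference table. GRMZM2G341027 had the lowest centred log2 ratio, -1.58. Its median was 0 TPM in the high-share cells (0 to 285) and 39.3 TPM in the low-share cells (0 to 721), with a UMI in 9 and 21 of 25 cells, and its means were 24.8, 38.5 and 82.7 TPM across high-share, middle and low-share cells. Without the shallowest low-share cell the ratio was -1.13, and in summed UMIs the high-share cells had 0.478 times the level (0.272 to 0.82). This was the clearest difference in the number of cells among the lowest genes.

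Several of the other lowest genes rested on the shallowest low-share cell, in which GRMZM5G836952, GRMZM2G329636 and GRMZM2G486046 each reached 1802 TPM from 5 UMIs. GRMZM2G486046 had means of 44.3 and 128 TPM in the high-share and low-share cells and a centred log2 ratio of -1.51, which was -0.54 without that cell. GRMZM5G836952 moved from -1.56 to -0.90 and GRMZM2G329636 from -1.48 to -0.85 without it. GRMZM2G120277 moved from -1.45 to -0.86 and GRMZM5G881135 from -1.21 to -0.76. The direction held in all 5 without the cell, and none of them was then past 2-fold. That cell was the highest low-share cell for each, and the rule for naming them already required the direction to hold without the highest cell of each group.

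GRMZM2G078839 behaved differently, since its ratio did not rest on that cell. It had means of 32.9 TPM in the high-share and 81.2 TPM in the low-share cells, but 215 TPM in the middle cells. Its centred log2 ratio of -1.25 became -1.35 without the shallowest cell. The mean therefore did not follow the order of the CSD4 share. Its medians were close, 21.71, 20.88 and 19.65 TPM in the high-share, middle and low-share cells, with a UMI in 14, 14 and 15 cells. The highest cells reached 2753 TPM in the middle and 876 TPM in the low-share group. GRMZM2G157113 had means of 31.3, 30.8 and 74.1 TPM in the high-share, middle and low-share cells, a level shared by the high-share and middle cells. Its centred log2 ratio was -1.19, or -1.01 without the shallowest cell.

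Some of the lowest genes could not be told apart by their values. GRMZM2G019039, GRMZM2G112193, GRMZM5G815325 and GRMZM5G896153, with GRMZM2G012910 among the other lower genes, had nearly the same values across the 76 cells: the correlations between them were 0.92 to 0.98 and they had 81 to 92 UMIs each over the kept cells. GRMZM2G329636 and GRMZM5G836952 had a correlation of 0.93, with 182 and 166 UMIs. Whether they share reads was not tested, and their ratios are uncertain. Among the 27 lower genes the 1 with a name was rip2 (GRMZM2G119705), a ribosome-inactivating protein, with means of 35.7, 73.8 and 76.8 TPM in the high-share, middle and low-share cells and a centred log2 ratio of -1.09.

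**Figure D4:**
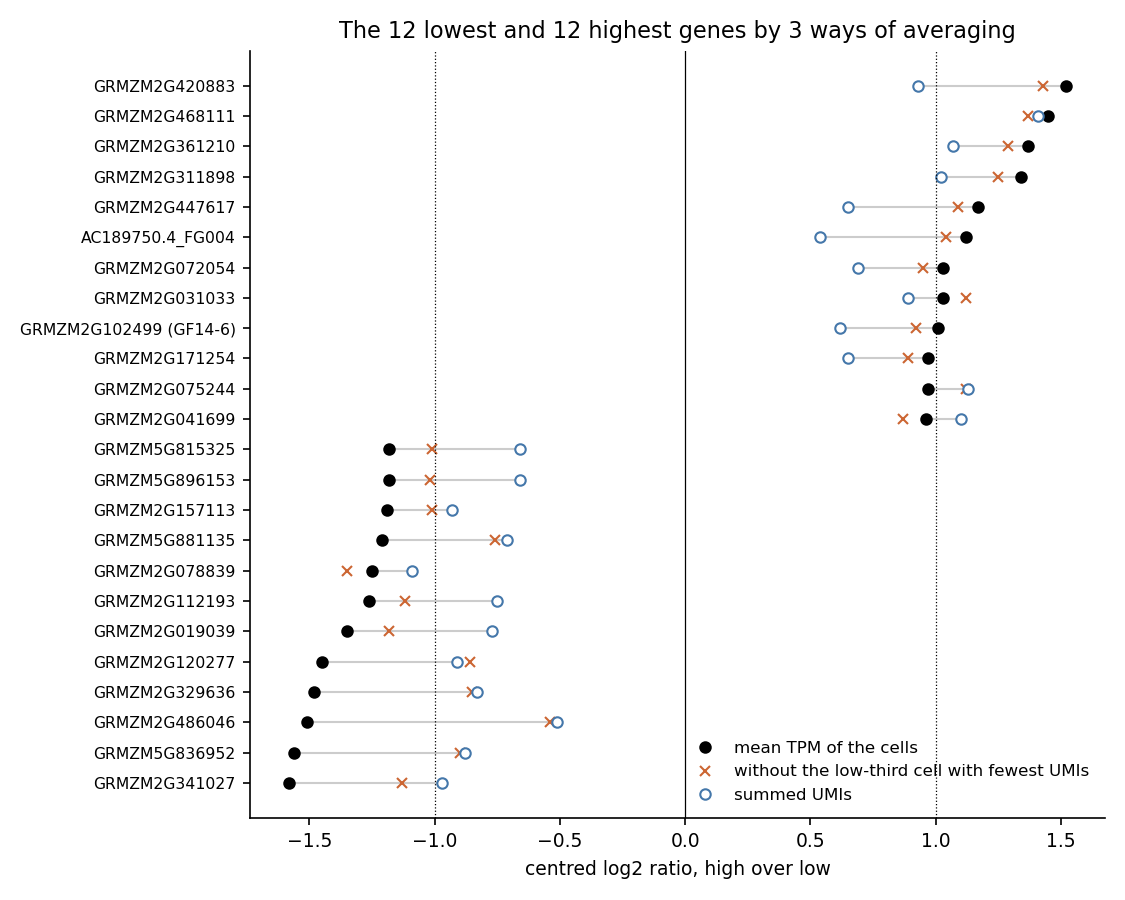
Centred log2 ratio of the high-share over the low-share cells (x axis) for the 12 lowest and 12 highest genes (y axis) by mean TPM (black), without the low-share cell with fewest UMIs (crosses) and by summed UMIs (open circles). Every gene keeps its side of 0, which by summed UMIs the rule for naming them required. GRMZM2G486046 goes from -1.51 to -0.54 without that cell, and 11 of the 12 lowest genes come inside 2-fold by summed UMIs.

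The construct row of CSD4 was sparse and did not follow the share. GFP_CSD4, the row of a green fluorescent protein fusion, had 12 UMIs in 8 high-share cells, 6 UMIs in 6 middle cells and 15 UMIs in 10 low-share cells. Its mean was 10.95 TPM in the high-share and 24.9 TPM in the low-share cells, or 16.9 TPM without the highest low-share cell. The ratio of summed UMIs was 0.73 (0.312 to 1.67), an interval for counting error only that includes 1. The 24 kept cells with a GFP_CSD4 UMI had a median share of 31.27% and a median of 822.8 TPM of the CSD4 gene model, against 32.58% and 1111 TPM in the 52 cells without one. Cells with such a UMI were deeper, with a median of 46050 UMIs against 26490.

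Summed construct UMIs were fewer in the high-share cells, while a similar share of cells held one at matched depth. After thinning to 5000 UMIs, 16 of 25 high-share cells (64.0%) and 15 of 24 low-share cells (62.5%) had a construct UMI. Summed over the 31 rows, the median was 350 TPM in the high-share cells (0 to 1033), 309 TPM in the middle and 485 TPM in the low-share cells (0 to 3470), and the groups overlapped. The shallowest low-share cell had 2523 TPM on these rows, and the mean was 423.5 TPM in the high-share cells against 719 TPM in the low-share cells with it and 644 TPM without it. In summed UMIs, 379 against 466 gave a ratio of 0.743 (0.647 to 0.852). The highest low-share cell on these rows was another one, protoplast 75, with 3470 TPM at 20749 UMIs. The sum and the row counts were not recomputed without protoplast 75, so how far they rest on it was not tested. Of the 27 rows with a UMI in the kept cells, 5 had a higher and 22 a lower mean in the high-share cells, or 6 and 21 without that cell. The lower rows were thus 81.5%, against 41.4% of the 31334 other rows with a UMI. Of the 18 rows found in at least 20% of the kept cells, 15 were lower (83.3%), or 14 without the shallowest cell (77.8%). Of the 8971 other rows found in as many cells (22.4% to 80.3%), 43.6% were lower, or 42.5% without that cell. All construct rows carry GFP in their names, and some had the same values in the bHLH pool. GFP_NAC29, GFP_OCL4 and GFP_ZFL1 each had a mean of 2.525 TPM and a UMI in 8.33% of its cells. GFP_EREB50 and GFP_EREB69 each had 4.01 TPM and a UMI in 13.5%. The counts of rows are therefore not counts of independent members, and whether the rows share reads was not tested.

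Single construct rows differed in direction. GFP_bHLH97 was one of the few that were higher, with a median of 105 TPM (0 to 481) in the high-share and 39.3 TPM (0 to 721) in the low-share cells, and a ratio of summed UMIs of 1.53 (1.10 to 2.15). Its means of 116 and 96.9 TPM were closer, a centred log2 ratio of 0.07, or 0.44 without the shallowest low-share cell. GFP_NAC25 had means of 16.8 and 44.2 TPM, or 29.97 TPM in the low-share cells without their highest cell, and a ratio of 0.47 (0.246 to 0.869). GFP_DOF25 had 6.28 and 54.1 TPM, or 26.3 TPM in the low-share cells without their highest cell, and a ratio of 0.304 (0.109 to 0.743). Neither GFP_NAC25 nor GFP_DOF25 was abundant enough to be eligible. The fusion rows of 2 factors in the share, GFP_OCL4 and GFP_ZFL1, had ratios of 0.591 (0.25 to 1.34) and 0.487 (0.179 to 1.22), whose intervals reach past 1.

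The eligible gene models that mark the pool lay mostly below the median gene. Apart from the 5, 129 gene models were found in at least 20% of the pool's cells and in the bHLH pool 5 or more times less often. Of these, 12 were eligible, 3 lay above and 9 below the median eligible gene, their median centred log2 ratio was -0.43, and none was past 2-fold. GRMZM2G108865 had means of 554, 879 and 737 TPM in the high-share, middle and low-share cells, GRMZM2G036966 had 736, 1006 and 925 TPM, and GRMZM2G438438 had 696, 914 and 835 TPM. GRMZM2G301089, among the 3 above the median, had 365, 350 and 305 TPM. The heat shock factor HSF2 (GRMZM2G088242) had 67.5, 117 and 79.4 TPM, highest in the middle cells.

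PHAS precursors overlapped between the groups and were somewhat higher in summed UMIs in the high-share cells, as was the median eligible gene. The 44 rows of the 21-nucleotide class summed to a median of 149.8 TPM (0 to 550.5) in the high-share, 91.07 TPM in the middle and 103.5 TPM (0 to 438) in the low-share cells. In summed UMIs, 138 against 92 gave a ratio of 1.37 (1.04 to 1.80). This ratio is not centred on the median eligible gene, whose own log2 ratio by summed UMIs was 0.16, so part of it is common to most genes. The rows 21PHAS_NO588 and 21PHAS_NO589 had the same UMI count in all but 1 of the 76 cells, and whether they hold the same reads was not tested. With that pair counted once, 100 against 66 UMIs gave 1.38 (1.00 to 1.92), and the medians were 91.7, 71.5 and 68.0 TPM in the high-share, middle and low-share cells. After thinning to 5000 UMIs, 10 of 25 high-share cells (40.0%, exact interval 21.1 to 61.3) and 9 of 24 low-share cells (37.5%, 18.8 to 59.4) had a UMI of this class. At matched depth the intervals of the groups thus overlapped nearly in full.

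The 24-nucleotide class was found in more cells. Its 36 rows summed to a median of 338 TPM (52.9 to 677) in the high-share, 315 TPM in the middle and 255 TPM (0 to 876) in the low-share cells. The summed UMIs gave a ratio of 1.28 (1.09 to 1.52), again not centred on the median eligible gene. At 5000 UMIs, 20 of 25 (80.0%) and 18 of 24 cells (75.0%) had a UMI. Of the 2 eligible loci, 24PHAS_NO166 had means of 202, 176 and 144 TPM in the high-share, middle and low-share cells (centred log2 ratio 0.30), and 24PHAS_NO63 had 78.6, 70.2 and 82.0 TPM (-0.22). The 2 loci thus lay on opposite sides of the median gene. The genes that make small RNAs (Dicer-like, Argonaute and RNA-dependent polymerase names, 8 matched) were too sparse to compare, with none eligible.

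**Figure D5:**
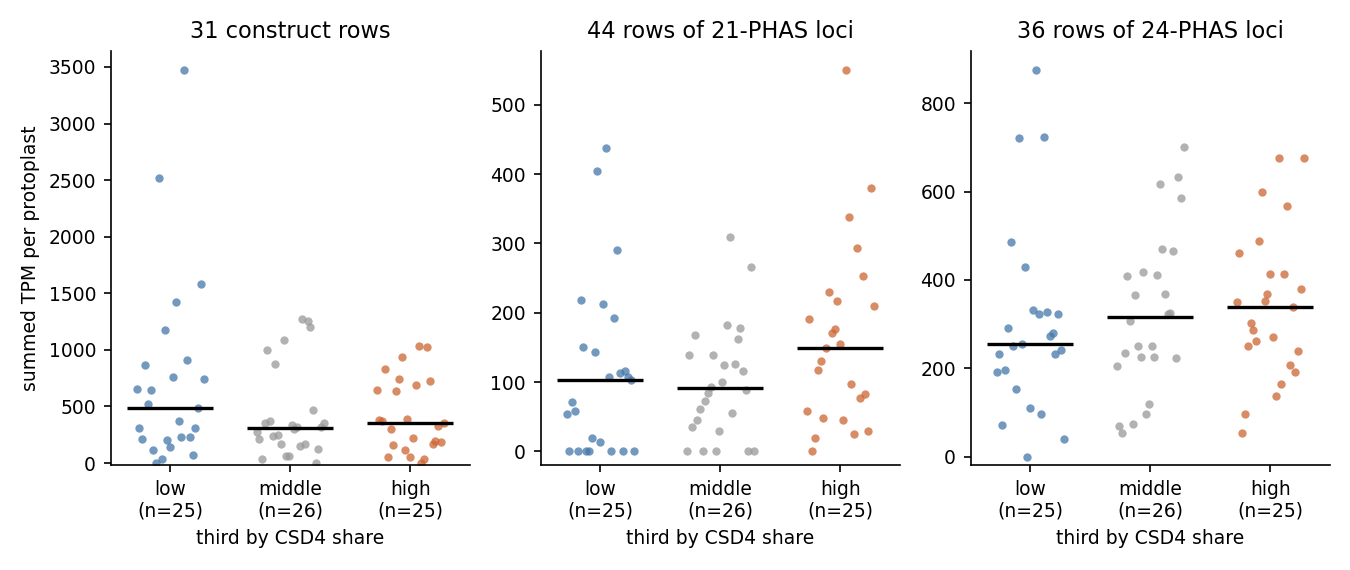
Summed TPM per protoplast (y axes) of the 31 construct rows, the 44 rows of 21-PHAS loci and the 36 rows of 24-PHAS loci in the low (n = 25), middle (n = 26) and high (n = 25) group by CSD4 share. Points are cells and lines are medians, which were 485, 309 and 350 TPM for constructs, 103.5, 91.07 and 149.8 TPM for 21-PHAS and 255, 315 and 338 TPM for 24-PHAS.

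Lists of genes by function gave small shifts, none with a member past 2-fold. They are read beside abundance, since the 337 eligible genes with a mean of at least 200 TPM had a median centred log2 ratio of 0.06 and the 71 with at least 1000 TPM a median of 0.13, with 60 of them above 0. The rows with most UMIs, GRMZM2G028910 and GRMZM5G806488, were on the other side, at -0.35 and -0.52, and their part in the shift of the abundant genes was not tested. Heat shock genes, which protect proteins from unfolding, had 15 eligible members, 12 above and 3 below the median gene. Their median was 0.20. The small heat shock protein hsp22 had a median of 1927 TPM (247 to 4734) in the high-share and 1543 TPM (118 to 4681) in the low-share cells, and the chaperone Hsp70 had means of 1966 and 1466 TPM. The strongest shifts were those of hsp82 (GRMZM5G833699), with means of 276.6 and 138 TPM (0.79), and hsp18 (GRMZM2G149647), with means of 352 and 179 TPM (0.77). By median TPM hsp18 went the other way, to -1.12. The factor HSF6 (GRMZM2G059851) was lower, with means of 52.5 and 77.7 TPM (-0.65).

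Detoxification genes lay on the same side. Of 9 eligible glutathione S-transferases, enzymes that conjugate glutathione to reactive compounds, 7 lay above and 2 below the median gene. Their median was 0.28, with an upper quartile of 0.24 over all eligible genes. The most abundant, gst5, had a median of 4647 TPM (582 to 17860) in the high-share and 2485 TPM (646 to 8019) in the low-share cells, with means of 5341, 2910 and 3607 TPM in the high-share, middle and low-share cells. The middle cells were the lowest, so gst5 did not follow the order of the share. The same held for gst2 (3049, 1979 and 2121 TPM) and gst7 (2677, 1615 and 1730 TPM).

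Genes of RNA binding and of the cold response were the list nearest to what CSD proteins are known for. Of 7 matched, 5 were eligible, 4 above and 1 below the median gene. Their median was 0.34. The glycine-rich RNA-binding protein grp1 had a median of 997 TPM (212 to 2832) in the high-share and 720 TPM (157 to 2163) in the low-share cells (0.29). After thinning to 5000 UMIs its ratio was -0.06. The dehydrin dhn2 had means of 362.5 and 252 TPM (0.34) and a ratio of summed UMIs of 1.95 (1.65 to 2.32). Its ratio was 0.15 without the highest cell of each group and -0.15 after thinning, with a UMI in 14 cells of either group. The other eligible dehydrin, dhn1 (GRMZM2G079440), lay below the median gene, with means of 61.1 and 76.3 TPM (-0.44). The median of the list was -0.06 after thinning. DREB2A, an AP2-type factor of drought and heat responses, had means of 152, 104 and 81.8 TPM in the high-share, middle and low-share cells (0.66). All of these overlapped between the groups.

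The remaining lists held few eligible genes. Glycolysis had 5, of which 4 lay above the median gene (median 0.33), among them the dehydrogenase gene gpc2 with means of 222 and 125 TPM (0.61). Endoplasmic reticulum folding had 5, all above, with a median of 0.13, and the chaperone bip2 had means of 332 and 232 TPM. Jasmonate synthesis names had 7, with 4 above and 3 below and a median of 0.13. The oxophytodienoate reductase opr1 had means of 4422 and 2942 TPM (0.42), and the lipoxygenase lox4 (GRMZM2G109056) had 41.2 and 66.6 TPM (-0.75). Translation had 10, with 5 above and 5 below and a median of 0.02, and the antioxidant enzymes apx and cat1 lay at 0.00 and 0.03. Except for glycolysis, the medians of these lists were no higher than the 0.13 of the most abundant genes.

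Wound and defence genes differed in direction. Of 32 matched, 3 were eligible, 1 above and 2 below the median gene. Their median was -0.62. The summed TPM of the 32 had medians of 1032 TPM in the high-share and 912 TPM in the low-share cells, and means of 1190 and 1468 TPM. The protease inhibitor wip1, induced by wounding, had means of 434 and 607 TPM in the high-share and low-share cells (-0.64), but medians of 361 and 299 TPM, and the highest low-share cell reached 3940 TPM. The thaumatin-like pr5 had means of 209 and 290 TPM (-0.62) and a ratio of summed UMIs of 0.681 (0.564 to 0.822). PAL1, the entry enzyme of phenylpropanoid synthesis, had 173 and 125 TPM (0.28). Of 3 eligible autophagy genes, which code for the ubiquitin-like tag Atg8, Atg8e (-0.63) and Atg8a (-0.38) lay below and Atg8b (0.44) above the median gene.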

How the data were processed

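Single protoplasts were profiled by CEL-seq2, which tags the 3′ ends of polyadenylated RNA, per the labels' protocols. The submitters' processing notes name HISAT2, SAMtools, UMI-tools and, as build, B73 RefGen v3, with no tool versions. The deposited values are a signal, named TPM by the authors, in which UMIs had been divided by totals recycled across cells. UMIs were recovered by undoing this (1001042 of 1001042 nonzero values whole within 0.001 UMI), and TPM were recomputed per cell, where the design had assumed TPM as deposited. Ratios are the log2 of mean TPM plus 10, minus the median over eligible genes. Ratios of summed UMIs are per 1000000 UMIs of each group, not centred, with exact binomial 95% intervals, and shares of cells have Clopper-Pearson 95% intervals. All cover counting error only. The scripts (python 3.11.15, numpy 2.4.6, pandas 2.3.3, scipy 1.17.1, matplotlib 3.10.9) were tested on simulated data.

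The pool was taken from the sample titles. No doublet caller was run, since each sample is labelled as a single protoplast. The kept cells held 969307 UMIs in the high-share, 954843 in the middle and 884987 in the low-share group. Names came from the reference table of Zm-B73-REFERENCE-NAM-5.0, in which 16091 of 41187 rows matched and 2263 had a name, so no coordinates are given. The genes named are the 5 of the share, construct rows in at least 20% of kept cells, pool-marking gene models, the 12 highest and 12 lowest eligible genes with the same direction by summed UMIs, without the highest cell and after thinning (1 low-share cell was too shallow), up to 4 members per list, and the leading PHAS rows. rip2, hsp82, hsp18, HSF6, dhn1, lox4 and GRMZM2G075461 were added after their values were seen. Members and lists were chosen with earlier results of these data known. The 16 lists included ubiquitin and proteasome (1 matched, 0 eligible) and photosynthesis (21 matched, 1 eligible, -0.07). The closing section gives 19 alternatives.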

Additional observations from a re-analysis of the deposited data

How the results depend on the processing

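The count of genes at least 2-fold higher and lower in the high-share cells (9 and 27, or 0.653% and 1.96% of 1379 eligible) moved with most of the 19 alternatives. The number of eligible rows moved too, from 337 to 28349, and the cause was not tested. Percentages below are shares of the eligible rows of each alternative. It was 16 and 42 (1.16% and 3.05%) with a pseudocount of 1, and 0 and 0 with 100. It was 0 and 2 (0% and 0.593%) at a mean of at least 200 TPM, and 6 and 3 (0.435% and 0.218%) by summed UMIs. Without a filter it was 216 and 451, and the shares of 0.762% and 1.59% stayed close to the main ones. It was 56 and 23 (4.06% and 1.67%) by median TPM and 40 and 43 (3.94% and 4.23%) after thinning. With at least 10 UMIs on the 5 gene models it was 16 and 47 (1.18% and 3.47%), and with at least 50 it was 23 and 28 (1.44% and 1.75%). The ranking cut into 2 parts gave 2 and 12 (0.153% and 0.917%), and 4 parts gave 39 and 51 (3.05% and 3.99%). Cells with at least 2000 genes gave 9 and 16 (0.604% and 1.07%) and ranking by CSD4 TPM 43 and 118 (3.32% and 9.1%). The deposited values as they stand gave 524 and 515 (12.1% and 11.9%).

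Further alternatives were chosen after seeing the data. The 9 and 11 cells of clear share only gave 85 and 89 (4.89% and 5.11%). Leaving out the shallowest low-share cell gave 15 and 15 (1.12% and 1.12%). TPM computed without GRMZM2G028910 gave 31 and 48 (1.41% and 2.19%), and taking the CSD4 background off gave 13 and 8 (0.995% and 0.612%). Leaving out each cell in turn gave 5 (without protoplast 40) to 15 (without protoplast 46) higher and 15 (without protoplast 46) to 37 (without protoplast 34) lower genes, and 0.41 to 0.70 for CSD4.

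The ranking uses CSD4, so its direction is set by the rule and is no sign of stability. Its ratio of 0.52 was 0.68 by summed UMIs, 0.71 by median TPM, 0.24 with 4 parts, 0.69 with the background off and 2.05 when ranked by CSD4 TPM. The other 4 gene models (-0.70) were at -0.60 with a pseudocount of 100, -0.58 without a filter, -0.53 by summed UMIs, -0.47 by median TPM, -0.57 thinned, -0.48 with 2 parts, -1.16 with 4 parts, -0.79 with at least 2000 genes, -0.44 as deposited, -0.93 with clear shares and -0.53 with the background off. They reversed to 1.49 when cells were ranked by CSD4 TPM, an order that shares 10 high-share and 14 low-share cells.

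Of the 108 named genes followed, those past 2-fold reversed under 5 alternatives. By median TPM GRMZM2G031033 was at -0.43 and GFP_OFP9 at 0.03. After thinning rip2 (GRMZM2G119705) was at 0.69. With at least 2000 genes GRMZM2G486046 was at 0.06. Ranked by CSD4 TPM, GRMZM2G447617 was at -0.35, AC189750.4_FG004 at -0.79, GRMZM2G341027 at 0.24, GRMZM5G836952 at 0.12, GRMZM2G486046 at 0.77, GRMZM2G120277 at 0.24, GRMZM2G078839 at 2.18, GRMZM2G157113 at 0.14, GFP_OFP9 at 0.45, GFP_NAC25 at 0.68, GFP_EREB50 at 0.52, GFP_DOF25 at 1.08, GFP_TCP23 at 0.22 and rip2 at 0.42. As deposited, GRMZM2G420883 was at -0.20, GRMZM2G031033 at -0.29, GRMZM2G102499 at -0.10, GRMZM2G112193 at 0.17 and GFP_NAC25 at 0.11. Over all alternatives, 21 of 532 values changed sign among the 12 highest, the 12 lowest and the 4 gene models, as did 137 of 1520 among the other 80 named genes, and 17 of 171 list medians. The first of these counts is no sign of stability. The 12 highest and 12 lowest were named only where the direction held by summed UMIs, without the highest cell of each group and after thinning. For the 4 gene models the ranking fixes the direction in part. No paired analysis was possible because each pool is 1 sample, and no replicate could be left out.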

Other observations

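The 20 protoplasts of the pool that fell under 20 UMIs on the 5 gene models were shallow, with a median of 7074 UMIs against 32380 in the 76 kept cells. Their CSD4 share ran from 0% to 56.25% with a median of 31.17%, and their CSD4 level had a median of 444 TPM (0 to 4197) against 1085 TPM in the kept cells.

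Several named genes that the lists do not hold stood near the upper end without reaching 2-fold, and were chosen here after their values were seen. AR1 (GRMZM2G479423) had means of 855 TPM in the high-share and 405 TPM in the low-share cells (0.90), and cystatin6 (GRMZM2G401328), a cysteine protease inhibitor, had 224 and 106 TPM (0.85). The laccase lac3 (GRMZM2G169033) had 121 and 59.4 TPM (0.76), and the fructokinase frk1 (GRMZM2G086845) had 133.5 and 70.1 TPM (0.68). On the other side brahma1 (GRMZM2G163849), a chromatin remodeller, had 51.2 and 91.7 TPM (-0.90).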
